A study of Mus musculus with 36 samples.

Results

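Dimethyl fumarate (DMF) was compared with monomethyl fumarate (MMF), at the same dose and the same time, in microglial cells exposed to lipopolysaccharide (LPS) for 4 h. The comparison was taken as the deposited table of this pair of groups, with all its genes. It holds 6 of the 36 libraries analysed in the series, 3 from cells given LPS and DMF and 3 from cells given LPS and MMF, and 17236 genes, of which 11377 had enough reads to be tested. The study asked how the fumarates and cannabidiol differ in the transcripts they change in activated microglia, and it was repeated as 3 independent experiments at 4 h and at 24 h. Both groups were BV-2 cells, an immortalised murine microglial line of wild-type genotype, and both received LPS from Escherichia coli 026:B6 at 600 ng/mL. One group received 30 µM DMF and the other 30 µM MMF, each drug dissolved in dimethyl sulfoxide (DMSO) at a final vehicle concentration of 0.2%, and the serum in the medium was lowered to 0.1% just before the drugs were added. The cells are a continuous line grown alone, without neurons or other brain cells.

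DMF is the diester of fumaric acid with methanol, and MMF is the monoester, which carries a free carboxylic acid in place of the other methyl ester. DMF reacts with thiols such as those of glutathione and of cysteines in proteins. One of these proteins is Keap1, which holds the transcription factor Nrf2 in a complex that marks it for degradation. When Keap1 is modified, Nrf2 accumulates and raises genes for heme breakdown, glutathione synthesis, thioredoxin recycling and NADPH supply. LPS acts through Tlr4 in microglia. It activates NF-kB, which raises cytokine and chemokine genes, and IRF factors, which raise interferon-β and through it the interferon-stimulated genes.

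The 6 libraries held 15665783 to 17686908 reads assigned to genes. On the first principal component of the 1000 most variable genes, which took 59.7% of the variance, the 3 DMF libraries lay between 7.79 and 22.3 and the 3 MMF libraries between -22.5 and -11.3. DMF replicate 2 lay nearest to the MMF libraries. Of 15 microglia and macrophage markers 13 were in the table, among them Ptprc, Csf1r, Itgam and Cd68, and Sall1 and Fcrls, which mark microglia of the brain, were not listed. Tmem119 and P2ry12, which also distinguish brain microglia, were close to background, at normalized counts of 24.0 with DMF and 31.0 with MMF and of 27.1 with DMF and 26.0 with MMF. The summed level of the marker list was 28702 to 34421 with DMF and 34567 to 38628 with MMF. Among 17 markers of neurons, astrocytes, oligodendrocytes, fibroblasts, endothelium and lymphocytes 6 were at 0 or not listed, 8 more were below a mean of 10 in both groups, and Mbp was the one well above background (877 with DMF and 1015 with MMF). Because RNA was taken from whole cultures, fewer cells of a kind and less RNA per cell cannot be told apart.

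DMF and MMF differed in 949 of the 11377 genes tested (8.34%), of which 383 (3.37%) were higher with DMF and 566 (4.97%) were lower. A gene was called where the adjusted p of limma fell below 0.05, and differences are of log2(normalized count + 1), DMF minus MMF. The genes that were lower differed by more: the median called difference was -0.75 among them and 0.53 among those that were higher. Beyond a log2 difference of 1 there were 193 genes lower and 73 higher, and beyond 2 there were 43 lower and 8 higher. All libraries of one group lay beyond all of the other in 945 of the 949 called genes, and in 29.6% of all genes tested. The split by direction moved with the scaling. After trends with gene length and GC content were removed, 735 genes were higher and 606 lower. Leaving out DMF replicate 3 gave 321 calls, MMF replicate 3 gave 369, MMF replicate 2 gave 444 and MMF replicate 1 gave 519, and 264 of the 949 genes (27.8%) were called whichever library was left out. No called gene changed sign in any of these fits. In the 945 genes whose groups lay apart, leaving out a library could not change the sign, so this is no measure of stability.

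**Figure D1:**
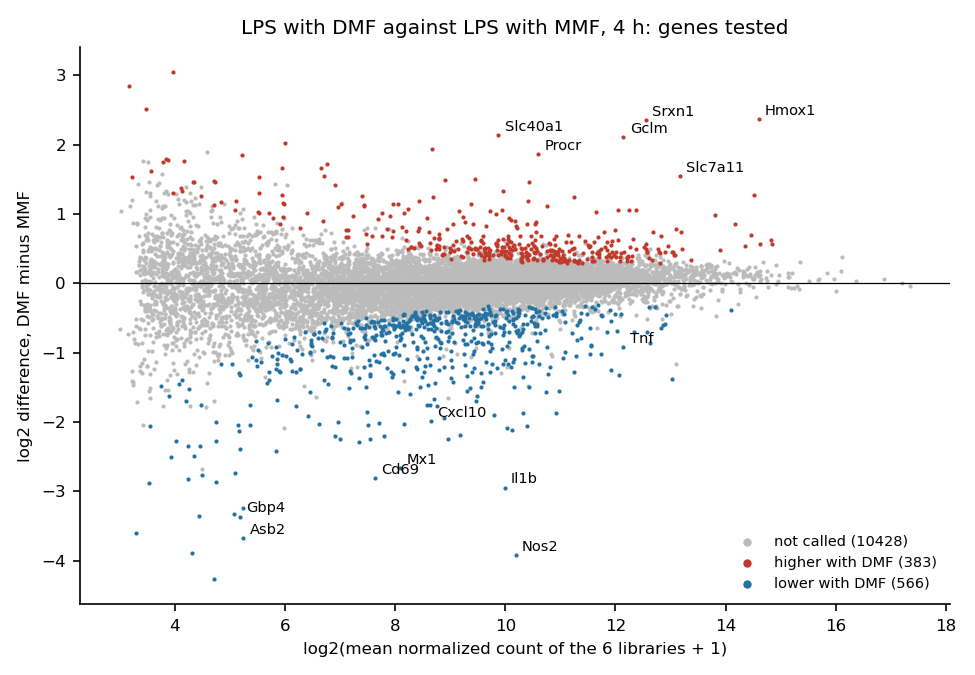
Each point is 1 of the 11377 genes tested, with its mean level over the 6 libraries on the horizontal axis (log2 of the mean normalized count + 1) and its log2 difference, DMF minus MMF, on the vertical axis. The 566 genes called lower with DMF reach -4.26, while 8 of the 383 called higher pass 2.

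For most genes not called the difference was bounded narrowly. Of the 10428 genes not called, 6205 (59.5%) had a 95% interval of the difference that lay wholly within 0.5 of zero, and 9246 (88.7%) within 1. Over all genes tested the interval reached a median of 0.28 to either side.

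Heme oxygenase 1 gave the largest rise among genes with a mean of at least 50 normalized counts in the higher group. Hmox1 (ENSMUSG00000005413, chromosome 8, bases 75820249 to 75827217), GRCm39 coordinates as for every gene here, codes for the enzyme that opens the heme ring, and its normalized counts were 34561, 44104 and 46688 with DMF and 7615, 9114 and 7468 with MMF. No library of one group came near the other, and the mean was 5.18-fold higher with DMF, a log2 difference of 2.37 ± 0.13 (SE, adjusted p = 1.88e-05). Srxn1 (ENSMUSG00000032802, chromosome 2, bases 151947436 to 151953296), sulfiredoxin, which repairs over-oxidised peroxiredoxins, counted 9888, 10471 and 9887 with DMF and 1973, 2284 and 1715 with MMF. Its libraries lay close together within each group, and the difference was 2.35 ± 0.11 (SE, adjusted p = 6.73e-06). Slc40a1 (ENSMUSG00000025993, chromosome 1, bases 45947228 to 45965683), ferroportin, the iron exporter of the cell, counted 1761, 1386 and 1434 with DMF and 400.0, 389 and 262 with MMF, a 4.36-fold difference of means (2.14 ± 0.17 SE, adjusted p = 0.000163). Gclm (ENSMUSG00000028124, chromosome 3, bases 122039206 to 122064381), the modifier subunit of the enzyme that makes the first bond of glutathione, counted 8145, 6162 and 7790.2 with DMF and 1887, 1636 and 1588 with MMF, with a difference of 2.11 ± 0.12 (SE, adjusted p = 1.88e-05).

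The other genes among the 12 largest rises were mostly expressed at lower levels. Vegfd, a growth factor for lymphatic vessels, counted 108, 95.1 and 98.6 with DMF and 23.3, 34.1 and 17.4 with MMF (2.02 ± 0.26 SE, adjusted p = 0.00214). Osgin1, an oxidative stress induced growth inhibitor, counted 689.9, 498 and 736 with DMF and 220.4, 174 and 114 with MMF (1.94 ± 0.23 SE, adjusted p = 0.00142). Procr, the endothelial protein C receptor, counted 2649.7, 2416 and 2217 with DMF and 702, 779 and 539.5 with MMF (1.86 ± 0.14 SE, adjusted p = 0.000119). In each of them every DMF library lay above every MMF library, which the rule for naming them required. Aox1, aldehyde oxidase, averaged 57.5 ± 15.3 with DMF and 15.0 ± 1.94 with MMF (SD, n = 3). Opn3, an opsin, Slc22a4, a carrier of ergothioneine and carnitine, Dnai7, a dynein intermediate chain, and Rnf183, a ubiquitin ligase, had differences of 1.73, 1.66, 1.66 and 1.55. All 12 kept their call whichever library was left out.

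**Figure D2:**
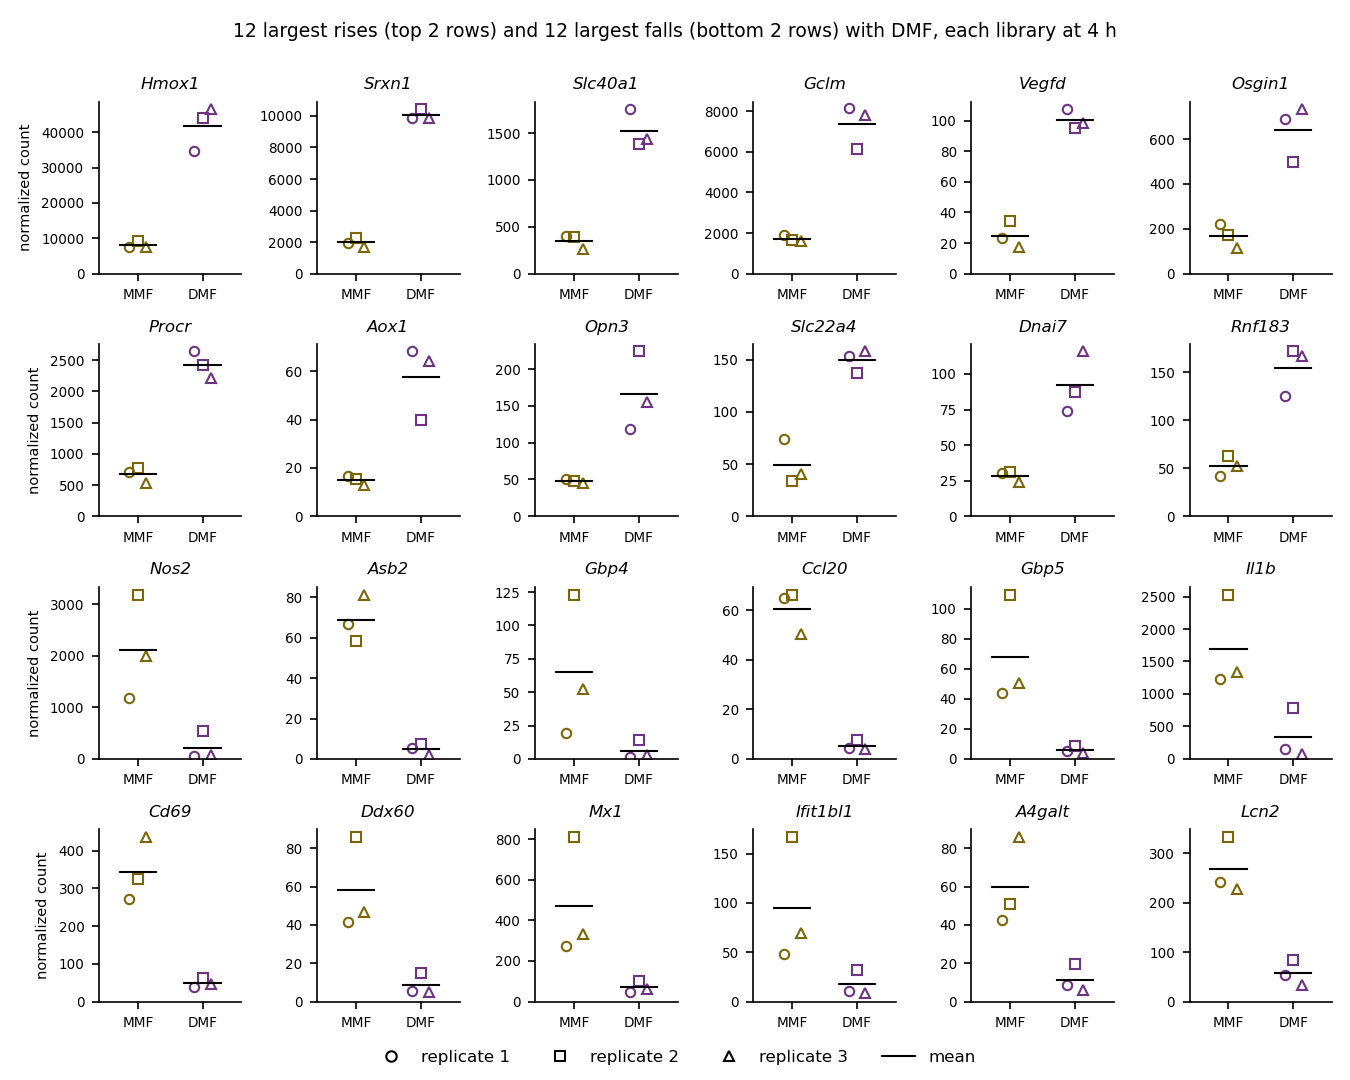
Normalized counts of each of the 6 libraries at 4 h for the 12 genes with the largest rise (top rows) and the 12 with the largest fall (bottom rows) with DMF. Symbols mark the replicate number and the line is the mean of 3. The 24 genes were chosen among called genes whose groups did not overlap. Among the falls replicate 2 is the highest DMF library in all 12.

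Genes of heme and iron handling were higher with DMF. Of 12 listed 11 were tested, 5 were higher and 0 lower, and the median difference was 0.41, beside 0.01 over all genes tested. Besides Hmox1 and Slc40a1, the biliverdin reductase Blvrb averaged 2019 with DMF and 733 with MMF (1.46 ± 0.09 SE, adjusted p = 5.82e-05), and the heme transporter Slc48a1 5736 with DMF and 2742 with MMF (1.06 ± 0.08 SE, adjusted p = 0.000119). Ferritin light chain, Ftl1, was higher by 0.56 (adjusted p = 0.0357), a call lost without DMF replicate 1 (0.0862), DMF replicate 3 (0.126), MMF replicate 2 (0.0908) or MMF replicate 3 (0.0901). The heavy chain Fth1 was among the most abundant transcripts and was not called, with a difference of 0.38 (95% interval 0.06 to 0.71), and the transferrin receptor Tfrc, which takes iron in, had 0.41 (95% interval 0.11 to 0.71). Blvra, the other biliverdin reductase, differed by -0.02 (95% interval -0.29 to 0.26), so a change as large as that of Blvrb lies outside its interval.

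Glutathione genes gave the highest median of the lists of this kind. All 7 calls among the 10 tested of 11 listed were upward, with a median of 0.70. Slc7a11, the transporter that brings cystine into the cell, counted 12171, 14632 and 14309 with DMF and 4575, 5223 and 4318 with MMF. This was a 2.91-fold difference of means (1.54 ± 0.10 SE, adjusted p = 7.12e-05), and its partner chain Slc3a2 was higher by 0.79. The catalytic subunit Gclc averaged 6577 with DMF and 3174 with MMF, a difference of 1.06 ± 0.10 (SE, adjusted p = 0.000563), which was smaller than that of its partner Gclm. Gsr, which returns oxidised glutathione to its reduced form, was higher by 1.05 ± 0.10 (SE, adjusted p = 0.000362). The glutathione peroxidases Gpx1 and Gpx4 were not called, at -0.16 (95% interval -0.47 to 0.14) and 0.04 (95% interval -0.16 to 0.24).

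Among the 12 thioredoxin and peroxiredoxin genes 5 were higher and 1 was lower, with a median of 0.17. Prdx1, a peroxidase of the cytosol, rose from a mean of 13737 ± 536 with MMF to 33419 ± 3812 with DMF (SD, n = 3), a difference of 1.28 ± 0.10 (SE, adjusted p = 0.000168). The reductase Txnrd1 averaged 19022 with DMF and 9597 with MMF (0.99 ± 0.09 SE, adjusted p = 0.00036), while thioredoxin itself, Txn1, was higher by 0.44 (adjusted p = 0.0499) and kept the call only without DMF replicate 2. Peroxiredoxins of the mitochondrion and the endoplasmic reticulum, Prdx3 and Prdx4, differed by 0.16 (95% interval -0.04 to 0.37) and 0.01 (95% interval -0.22 to 0.24). Txnip, an inhibitor of thioredoxin, was lower by -0.43 (adjusted p = 0.0238), a call lost without DMF replicate 3 (0.117), MMF replicate 1 (0.0879), MMF replicate 2 (0.0882) or MMF replicate 3 (0.0572). Without DMF replicate 3 or MMF replicate 2 the calls in the list fell from 6 to 3.

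Enzymes that supply NADPH, the reductant used by the above pathways, were called in part, among them G6pdx and Pgd of the oxidative branch of the pentose phosphate pathway and Taldo1 of its other branch. Pgd averaged 27888 with DMF and 17251 with MMF (0.70 ± 0.11 SE, adjusted p = 0.00454), Taldo1 was higher by 0.49 and malic enzyme Me1 by 0.90. G6pdx, the entry enzyme of the pathway, was higher by 0.45 (adjusted p = 0.00953), a call lost without DMF replicate 3 (0.0504). Of 10 tested 4 were higher and 0 lower, and the median was 0.09, since Tkt, Idh1, Idh2, Rpe, Rpia and Pgls each had an interval within 0.5 of zero.

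Of detoxification enzymes and pumps 5 of 15 tested (18 listed) were higher and 0 lower, with a median of 0.20. Ptgr1, which inactivates prostaglandins and reactive aldehydes, averaged 1044 with DMF and 358 with MMF (1.51 ± 0.18 SE, adjusted p = 0.00188), and the esterase Esd 8271 with DMF and 4926 with MMF (0.74 ± 0.11 SE, adjusted p = 0.00454). Nqo1, a quinone reductase widely used as a readout of Nrf2, was expressed at a low level. It counted 54.5, 27.0 and 33.5 with DMF and 13.6, 9.75 and 15.5 with MMF, and its difference of 1.46 ± 0.34 (SE, adjusted p = 0.026) lost the call without DMF replicate 1 (0.0794), DMF replicate 3 (0.0859), MMF replicate 1 (0.0635), MMF replicate 2 (0.0811) or MMF replicate 3 (0.0599). The glutathione transferases Gstm1 and Gstp1 were not called, at 0.18 (95% interval -0.15 to 0.51) and 0.29 (95% interval -0.03 to 0.61). The calls in the list numbered 3 without DMF replicate 3, MMF replicate 2 or MMF replicate 3.

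The transcript of Nrf2 itself did not differ detectably. Nfe2l2 counted 2257, 2049 and 2067 with DMF and 2160.3, 1913 and 1877 with MMF, the groups overlapped, and the difference was 0.10 (95% interval -0.10 to 0.30). Keap1 differed by 0.20 (95% interval -0.08 to 0.47). Of the 12 genes tested among Nrf2 and its regulators 4 were higher and 1 lower (median 0.25). Sqstm1, an autophagy receptor that binds Keap1, averaged 23862 with DMF and 13163 with MMF (0.86 ± 0.09 SE, adjusted p = 0.000805), and Bach1, a repressor of Hmox1 and other targets, 1497 with DMF and 838 with MMF (0.83 ± 0.14 SE, adjusted p = 0.00625). Mafg, a partner of Nrf2 on DNA, was higher by 0.52 (adjusted p = 0.00937), a call lost without DMF replicate 3 (0.0554). In this list the calls numbered 2 without DMF replicate 3 and 3 without any 1 of the MMF libraries.

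Promoters were read from the GRCm39 genome for 17557 genes, as the 250 bases before the transcript that the annotation marks as canonical. They were searched on both strands for the antioxidant response element TGACNNNGC, to which Nrf2 binds. A match was present in 10.4% of all promoters, in 16% of the 381 promoters of genes higher with DMF, in 9.56% of the 565 of genes lower with DMF and in 10.5% of those not called. In the redox lists it was present in 0 of 10 promoters of NADPH supply, 0 of 15 of detoxification, 1 of 11 of heme and iron, 1 of 10 of glutathione synthesis, 3 of 12 of thioredoxin and peroxiredoxin and 3 of 12 of Nrf2 and its regulators. Matches are a description of these letters in this window only. Of the called list members with a match, the 3 with the largest difference were Oasl2, Gclm and Cish, and only Gclm was higher with DMF. Its window is shown, with the match, on the reverse strand, in capitals and starting 54 bases before the canonical transcript. That transcript starts upstream of the Gclm gene start given above, so the match lies further from the latter.
Gclm promoter, chr3:122038876-122039125, GRCm39, plus strand: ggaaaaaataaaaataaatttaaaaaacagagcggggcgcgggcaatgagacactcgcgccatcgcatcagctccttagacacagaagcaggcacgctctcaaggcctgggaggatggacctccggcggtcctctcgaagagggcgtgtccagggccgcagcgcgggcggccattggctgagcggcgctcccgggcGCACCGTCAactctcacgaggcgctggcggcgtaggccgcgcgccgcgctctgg

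Heat shock genes were higher with DMF wherever they were called. The list is of cytosolic proteins apart from Hspd1 and Hspe1, which act in the mitochondrion. Of 15 tested 6 were higher and 0 lower, and all 15 differences were positive, with a median of 0.43. Hspa8, the constitutive Hsp70, counted 31320.4, 36035 and 37878 with DMF and 23763, 24262 and 20220.2 with MMF, and no library overlapped the other group (0.62 ± 0.11 SE, adjusted p = 0.0081). Hsph1 was higher by 0.69 ± 0.10 (SE, adjusted p = 0.00351) and Hsp90aa1, the inducible Hsp90, by 0.54 ± 0.08 (SE, adjusted p = 0.00497). The constitutive Hsp90ab1 differed by 0.18 (95% interval -0.03 to 0.38) and the transcription factor of the response, Hsf1, by 0.01 (95% interval -0.19 to 0.21). Leaving out MMF replicate 3 left 3 calls, and DMF replicate 3, MMF replicate 1 or MMF replicate 2 left 4.

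The amino acid and integrated stress response governed by Atf4 gave 5 of 15 tested higher and 0 lower, with a median of 0.38. Atf4 itself averaged 11709 with DMF and 7035 with MMF (0.74 ± 0.09 SE, adjusted p = 0.00141). Trib3, a pseudokinase that Atf4 induces, counted 1019, 1607 and 1649 with DMF and 482, 469 and 757 with MMF, with no overlap (1.32 ± 0.22 SE, adjusted p = 0.00614). Chac1, which degrades glutathione, was higher by 1.19 (adjusted p = 0.0184), a call lost without DMF replicate 3 (0.0868), MMF replicate 1 (0.068) or MMF replicate 2 (0.0573). Amino acid synthesis genes of the same response, Psat1, Phgdh and Shmt2, were not called, at 0.16 (95% interval -0.04 to 0.36), 0.06 (95% interval -0.15 to 0.27) and 0.07 (95% interval -0.12 to 0.26). Without DMF replicate 3 or MMF replicate 2 the list held 2 calls, without MMF replicate 1 it held 3, and without DMF replicate 1 it held 8.

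Other stress programmes differed little. Of 14 chaperones of the endoplasmic reticulum and genes of the unfolded protein response 1 was called, Dnajb9, at 0.52 (adjusted p = 0.0167), and lost that call without DMF replicate 3 (0.0618), MMF replicate 1 (0.0654), MMF replicate 2 (0.0594) or MMF replicate 3 (0.0531). The other 13 each had an interval within 0.5 of zero, among them Hspa5 at 0.14 (95% interval -0.05 to 0.32). Still, 13 of the 14 differences were positive, with a median of 0.14, and 6 had an unadjusted limma p below 0.05. After length and GC trends were removed 4 were called higher. Of 12 targets of p53 2 were higher and 1 lower, and Cdkn1a, the cell cycle inhibitor, differed by -0.08 (95% interval -0.34 to 0.17). Trp53inp1, which promotes p53-dependent death and autophagy, was higher by 0.56 ± 0.09 (SE, adjusted p = 0.00496). The other calls in that list were Pmaip1, at 0.42 (adjusted p = 0.0483), and Btg2, at -0.57 (adjusted p = 0.0334). Pmaip1 kept its call only without DMF replicate 2, and Btg2 lost it without DMF replicate 1 (0.0764), DMF replicate 3 (0.128), MMF replicate 2 (0.108) or MMF replicate 3 (0.137). Of 8 zinc genes tested 1 was higher, the zinc exporter Slc30a1, which averaged 1414 with DMF and 737 with MMF (0.94 ± 0.11 SE, adjusted p = 0.00133), while the metallothionein Mt1 differed by 0.34 (95% interval 0.03 to 0.65).

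Inducible nitric oxide synthase gave the largest fall among genes at that level. Nos2 (ENSMUSG00000020826, chromosome 11, bases 78811613 to 78851080) makes nitric oxide in activated microglia, and it counted 55.5, 533 and 71.0 with DMF and 1172, 3180.4 and 1994 with MMF. The highest DMF library, replicate 2, lay below the lowest MMF library but well above the other DMF libraries, and the difference was -3.91 ± 0.70 (SE, adjusted p = 0.00899), a call lost without MMF replicate 3 (0.0525). Asb2 (ENSMUSG00000021200, chromosome 12, bases 103287401 to 103322260), a subunit of ubiquitin ligases, counted 5.34, 7.57 and 1.97 with DMF and 67.0, 58.5 and 81.2 with MMF (-3.67 ± 0.41 SE, adjusted p = 0.00111). Ccl20 (ENSMUSG00000026166, chromosome 1, bases 83094487 to 83096888), a chemokine for lymphocytes and dendritic cells, counted 4.27, 7.57 and 3.94 with DMF and 65.05, 66.3 and 50.2 with MMF (-3.33 ± 0.33 SE, adjusted p = 0.000612). Asb2, Ccl20 and Gbp5 reached 10 normalized counts only in the MMF libraries, so that they entered the test through the group in which they were high, and without an MMF library they were not tested.

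Il1b (ENSMUSG00000027398, chromosome 2, bases 129206490 to 129213059), the precursor of interleukin-1β, counted 145, 782 and 78.8 with DMF and 1229, 2527 and 1342 with MMF. Again replicate 2 was the highest in both groups, and the difference of -2.94 ± 0.66 (SE, adjusted p = 0.022) lost the call without DMF replicate 1 (0.0709), DMF replicate 3 (0.0735), MMF replicate 2 (0.07) or MMF replicate 3 (0.0819). Cd69 (ENSMUSG00000030156, chromosome 6, bases 129244288 to 129252399), a surface marker of early activation, had the smallest relative spread of these falls, with 37.4, 61.6 and 46.3 with DMF and 273, 325 and 436 with MMF (-2.81 ± 0.22 SE, adjusted p = 0.000177). Lcn2 (ENSMUSG00000026822, chromosome 2, bases 32274645 to 32278264), lipocalin-2, an iron-binding acute phase protein, counted 54.5, 83.2 and 33.5 with DMF and 243, 333 and 227 with MMF (-2.28 ± 0.29 SE, adjusted p = 0.00214). A4galt, a glycosyltransferase, was lower by -2.40 ± 0.43 (SE, adjusted p = 0.00876) and lost its call without MMF replicate 3 (0.0546). The remaining genes among the 12 largest falls, Gbp4, Gbp5, Ddx60, Mx1 and Ifit1bl1, are interferon-stimulated and are described with that group. Replicate 2 was the highest library of both groups in 9 of the 12 falls and in 2 of the 12 rises.

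Cytokine genes were lower with DMF, with 7 lower and 1 higher of 14 tested (19 listed) and a median of -1.05. Tnf, tumour necrosis factor, was expressed at a high level in both groups, with 3799, 3122 and 2500.5 with DMF and 7055, 5282 and 5424 with MMF, and was lower by -0.92 ± 0.16 (SE, adjusted p = 0.00719). Il1a, the other interleukin-1, averaged 214 ± 144 with DMF and 735 ± 184 with MMF (SD, n = 3), a difference of -1.95 ± 0.37 (SE, adjusted p = 0.0112). Lif and Il23a were lower by -1.18 and -0.80, and Il27 averaged 9.74 with DMF and 42.1 with MMF. Il6 counted only 25.6, 7.57 and 2.96 with DMF and 28.2, 46.8 and 25.6 with MMF, and its difference was not called (-1.79, 95% interval -3.12 to -0.45). The antagonist of the interleukin-1 receptor, Il1rn, did not follow Il1a and Il1b, at 0.11 (95% interval -0.34 to 0.56). Osm, oncostatin M, was the call in the other direction, at 0.58 ± 0.12 (SE, adjusted p = 0.0166), which was lost without DMF replicate 3 (0.0877), MMF replicate 2 (0.0665) or MMF replicate 3 (0.0738). The calls in the list numbered 5 without DMF replicate 3, MMF replicate 2 or MMF replicate 3.

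Chemokine genes divided. Of 13 tested (16 listed) 6 were lower and 0 higher, with a median of -0.58. Cxcl10, induced by interferons and NF-kB and a ligand of Cxcr3, counted 137, 189 and 140.0 with DMF and 382, 819 and 735 with MMF. The groups lay well apart (-1.99 ± 0.26 SE, adjusted p = 0.00214). Ccl7, a monocyte chemokine, counted 104, 74.6 and 55.2 with DMF and 365, 209 and 270.2 with MMF (-1.85 ± 0.25 SE, adjusted p = 0.00272), and Ccl9 averaged 1100.1 with DMF and 1968 with MMF (-0.84 ± 0.11 SE, adjusted p = 0.00214). Ccl2, the main ligand of Ccr2, was lower by -1.20 ± 0.25 (SE, adjusted p = 0.016), but not without DMF replicate 3 (0.0726), MMF replicate 1 (0.0548) or MMF replicate 3 (0.0666). The neutrophil chemokines Cxcl2 and Cxcl3 showed no such difference. Cxcl2 counted 9017, 10802 and 5584 with DMF and 9949.8, 8445 and 7616 with MMF, the groups overlapped, and the difference was -0.08 (95% interval -0.53 to 0.38). That of Cxcl3 was -0.07 (95% interval -0.82 to 0.68). Ccl3 was likewise not called, at -0.35 (95% interval -0.75 to 0.06). Without MMF replicate 1 or MMF replicate 3 there were 3 calls.

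Receptors for chemokines and metabolites gave 4 lower and 1 higher of 11 tested, with a median of -0.43. Hcar2, a receptor for hydroxybutyrate and nicotinic acid that MMF is known to activate, counted 131, 278 and 148 with DMF and 486, 562 and 767 with MMF. It was lower by -1.75 ± 0.26 (SE, adjusted p = 0.00417). Ccrl2, a non-signalling receptor for chemerin, averaged 83.4 with DMF and 332 with MMF (-2.01 ± 0.28 SE, adjusted p = 0.0031). Cxcr4, the receptor of Cxcl12, was the gene that was higher, with 393, 242 and 474 with DMF and 167, 136 and 181 with MMF (1.15 ± 0.23 SE, adjusted p = 0.0133), but not without DMF replicate 3 (0.0613). Without DMF replicate 3 there were 2 calls and without MMF replicate 2 there were 3.

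Inflammatory enzymes did not move as a block, with 5 lower and 1 higher of 16 tested and a median of -0.14. Besides Nos2 and Lcn2, the subunits of the phagocyte NADPH oxidase Cybb and Ncf1 were lower, by -0.90 ± 0.15 (SE, adjusted p = 0.00695) and by -0.56 ± 0.08 (SE, adjusted p = 0.00331). Ptgs2, cyclooxygenase-2, was one of the most abundant inflammatory transcripts and stood in the other direction, with 31126, 43778 and 30674 with DMF and 21402, 27175 and 22053 with MMF. Its difference of 0.57 ± 0.15 (SE, adjusted p = 0.043) lost the call without DMF replicate 2 (0.0586), DMF replicate 3 (0.0716), MMF replicate 1 (0.139) or MMF replicate 3 (0.155). Acod1, which makes itaconate, counted 5876, 8296 and 4275 with DMF and 7889.6, 10215 and 7516 with MMF and was not called, at -0.51 (95% interval -0.97 to -0.05). Nos2 was not called without MMF replicate 3, without which the list held 3 calls.

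The transcript of the NF-kB subunit Rela differed by 0.03 (95% interval -0.18 to 0.25) and that of Rel by -0.19 (95% interval -0.55 to 0.17). The genes of NF-kB feedback differed more. Of the 22 genes in the list 8 were lower and 1 higher, and the median was -0.40. Ikbke, an inducible kinase that joins NF-kB and IRF signalling, counted 650.4, 601 and 407 with DMF and 2041, 1956 and 1975 with MMF. Its highest DMF library lay far below its lowest MMF library, and the difference was -1.88 ± 0.15 (SE, adjusted p = 0.000212). Tnip1, a partner of the inhibitor A20, was lower by -1.02 ± 0.11 (SE, adjusted p = 0.000829), and Tnfaip2 by -0.70 ± 0.12 (SE, adjusted p = 0.00697). Nfkbia, which codes for IkBα and is itself a target of NF-kB, counted 2053, 3077 and 1746 with DMF and 3695, 4555 and 5421 with MMF. It was lower by -1.02 ± 0.20 (SE, adjusted p = 0.0127), as was Tnfaip3, which codes for A20, by -1.18 ± 0.24 (SE, adjusted p = 0.0143). Both calls were lost without DMF replicate 3 (0.0554 and 0.0641) or MMF replicate 3 (0.0692 and 0.079). The list held 3 calls without either of these libraries and 15 without DMF replicate 2.

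The receptor of LPS and most of its relay were not called. Tlr4 differed by 0.30 (95% interval 0.08 to 0.51), Myd88 by -0.20 (95% interval -0.38 to -0.01), Traf6 by -0.08 (95% interval -0.31 to 0.15) and Cd14, the co-receptor, by -0.29 (95% interval -0.51 to -0.08). Of 19 genes of LPS sensing tested 4 were lower and 0 higher, with a median of -0.08. These were Tlr2, which detects bacterial lipopeptides, at 1625 with DMF and 3336 with MMF (-1.05 ± 0.11 SE, adjusted p = 0.000805), Tlr3, which detects double-stranded RNA (-1.46 ± 0.21 SE, adjusted p = 0.00331), Tlr7 (-0.59 ± 0.10 SE, adjusted p = 0.0081) and the kinase Irak2 (-0.85 ± 0.14 SE, adjusted p = 0.00697). Their number stayed between 4 and 5 whichever library was left out.

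Surface molecules of activation gave 6 lower and 0 higher of 11 tested, with a median of -1.17. Icam1, an adhesion molecule, counted 2420.1, 2622 and 2217 with DMF and 5384, 5428 and 7479.5 with MMF. Every DMF library lay below every MMF library (-1.32 ± 0.13 SE, adjusted p = 0.000612). The costimulatory receptor Cd40 was lower by -1.17 ± 0.15 (SE, adjusted p = 0.00234) and Cd274, the ligand PD-L1, by -1.21 ± 0.16 (SE, adjusted p = 0.00234). The ligands Cd80 and Cd86, which also costimulate T cells, were not called, at -0.12 (95% interval -0.34 to 0.10) and -0.09 (95% interval -0.52 to 0.34).

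**Figure D3:**
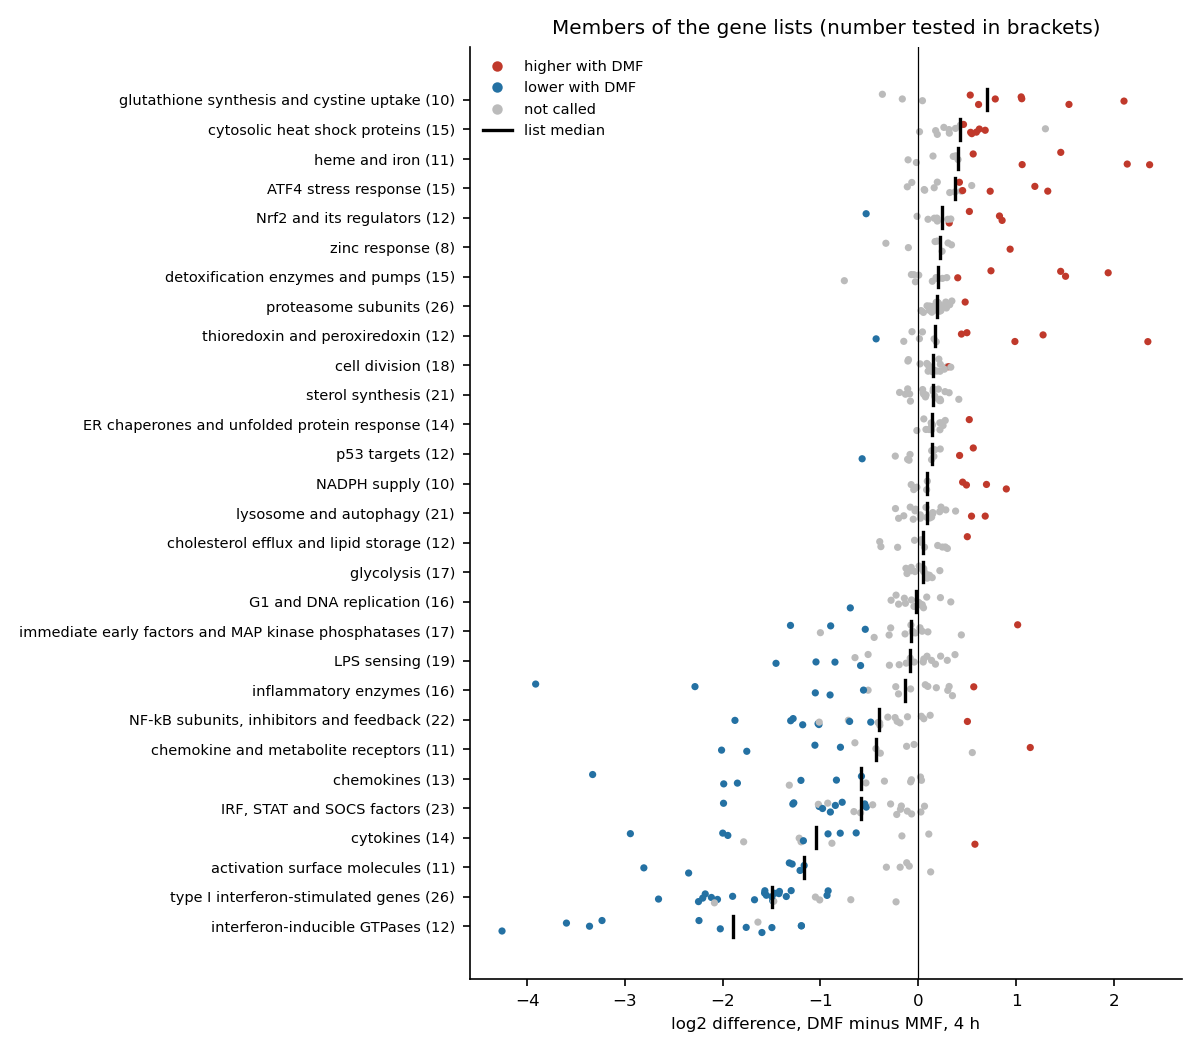
Log2 difference, DMF minus MMF at 4 h, of each tested member of 29 gene lists, ordered by median, with called members in colour. The lists of redox and stress genes lie to the right of zero and those of interferon and cytokine genes to the left, with interferon-inducible GTPases lowest at a median of -1.89 and glutathione genes highest at 0.70.

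Interferon-stimulated genes were lower with DMF wherever they were called. All 26 tested of 28 listed had a negative difference, 20 were called lower and 0 higher, and the median was -1.49. Mx1, a GTPase that blocks viruses, counted 45.9, 103 and 60.1 with DMF and 275, 809 and 333 with MMF (-2.66 ± 0.39 SE, adjusted p = 0.00362). Ifit1, which binds foreign RNA caps, counted 414, 651 and 442 with DMF and 1320.4, 3227 and 2014 with MMF (-2.05 ± 0.28 SE, adjusted p = 0.0025), and Ifit2 averaged 394 with DMF and 1821 with MMF (-2.12 ± 0.31 SE, adjusted p = 0.00351). In all of these genes replicate 2 was the highest library in both groups, as it was in all 20 called genes of the list. Usp18, which turns off interferon receptor signalling, was lower by -1.90 ± 0.25 (SE, adjusted p = 0.00218), Oasl2 by -2.18 ± 0.36 (SE, adjusted p = 0.00625) and Trim30a by -1.55 ± 0.23 (SE, adjusted p = 0.00357). Ddx60, a helicase of antiviral sensing, counted 5.34, 15.1 and 4.93 with DMF and 41.8, 85.8 and 46.6 with MMF (-2.73 ± 0.44 SE, adjusted p = 0.00606). Isg15, a ubiquitin-like modifier, counted 131, 277 and 143 with DMF and 365, 735 and 433 with MMF. Its difference of -1.49 ± 0.30 (SE, adjusted p = 0.0157) was not called without DMF replicate 3 (0.0718) or MMF replicate 3 (0.0583). The call of Ifit1bl1, at -2.42 ± 0.52 (SE, adjusted p = 0.0192), was lost without DMF replicate 1 (0.0586), DMF replicate 3 (0.0833), MMF replicate 2 (0.0637) or MMF replicate 3 (0.0718). Bst2, the antiviral tetherin, was expressed at 5255 with DMF and 6155 with MMF and differed by -0.23 (95% interval -0.65 to 0.19). The calls in the list numbered 7 without MMF replicate 3, 9 without DMF replicate 3 and 13 without MMF replicate 2. Members of the Ifit, Oas and guanylate-binding families share sequence, and how reads common to them were assigned is not given in the sources used here, so the split between near copies such as Ifit3 and Ifit3b is uncertain.

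Interferon-inducible GTPases, which attack the vacuoles of intracellular microbes, gave 11 lower and 0 higher of 12 tested (17 listed). Gbp2 counted 58.7, 116 and 32.5 with DMF and 230.1, 432 and 246 with MMF (-2.24 ± 0.40 SE, adjusted p = 0.00838), and Irgm1 averaged 599.8 with DMF and 1689.8 with MMF (-1.50 ± 0.17 SE, adjusted p = 0.00131). Gbp3 and Igtp were lower by -2.02 and -1.60. Gbp5 counted 5.34, 8.65 and 3.94 with DMF and 43.7, 109 and 50.2 with MMF, with no overlap (-3.23 ± 0.41 SE, adjusted p = 0.00214). Gbp4 counted 1.07, 14.1 and 2.96 with DMF and 19.4, 123 and 52.0 with MMF, and its difference of -3.36 ± 0.77 (SE, adjusted p = 0.0244) lost the call without DMF replicate 1 (0.0657), DMF replicate 3 (0.0904), MMF replicate 2 (0.0853) or MMF replicate 3 (0.102). At the lowest levels, Gm5431 counted 0, 2.16 and 3.94 with DMF and 34.0, 62.4 and 48.4 with MMF and Tgtp2 0, 2.16 and 0 with DMF and 15.5, 18.5 and 16.4 with MMF, which for DMF is a handful of reads. Gbp5, Gm5431 and Tgtp2 reached 10 only in MMF libraries. The calls in the list numbered 6 without MMF replicate 3 and 7 without MMF replicate 2.

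The interferon-stimulated response element, searched as 2 copies of GAAA with any 2 bases between them on both strands of the same windows, was present in 3.1% of all promoters. It was found in 8.14% of the promoters of genes lower with DMF, in 2.62% of those higher and in 2.81% of those not called, and in 13 of the 26 promoters of the interferon-stimulated list (50%) and 4 of the 12 of the GTPases (33.3%). The called list members with a match and the largest differences were Tgtp2 (which entered the test only through its MMF libraries), Ifit3 and Ifit3b. Their windows are shown because they carry the element close to the start, in capitals, 1 time in Tgtp2 and 2 times in each of the near-identical Ifit3 and Ifit3b, whose calls were lost without MMF replicate 3 (0.0562 and 0.0533) and, for Ifit3, without DMF replicate 3 (0.0539).
Tgtp2 promoter, chr11:48955032-48955281, GRCm39, minus strand: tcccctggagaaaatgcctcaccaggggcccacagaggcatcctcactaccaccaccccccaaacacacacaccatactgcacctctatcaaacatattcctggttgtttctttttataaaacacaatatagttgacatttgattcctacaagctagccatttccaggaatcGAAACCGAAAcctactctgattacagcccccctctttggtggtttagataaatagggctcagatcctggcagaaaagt
Ifit3 promoter, chr19:34560649-34560898, GRCm39, plus strand: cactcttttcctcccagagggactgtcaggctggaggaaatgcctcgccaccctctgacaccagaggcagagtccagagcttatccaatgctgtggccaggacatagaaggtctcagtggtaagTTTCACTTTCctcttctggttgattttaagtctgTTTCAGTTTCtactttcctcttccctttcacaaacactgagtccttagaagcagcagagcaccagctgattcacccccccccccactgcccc
Ifit3b promoter, chr19:34585078-34585327, GRCm39, plus strand: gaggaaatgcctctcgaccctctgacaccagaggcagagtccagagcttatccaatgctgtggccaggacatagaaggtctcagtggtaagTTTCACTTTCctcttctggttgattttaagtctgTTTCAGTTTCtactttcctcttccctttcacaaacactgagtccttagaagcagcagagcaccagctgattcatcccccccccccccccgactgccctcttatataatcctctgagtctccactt

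The kappaB consensus, the site of NF-kB, was found in 4.58% of all promoters on either strand, in 7.79% of those lower with DMF, 4.2% of those higher and 4.18% of those not called. Among the lists it was present in 6 of 13 chemokine promoters (46.2%). Nos2, Ccl20 and Cd69 were the called list members with a match and the largest falls. Their windows are shown for that reason, with the match in capitals. Of these genes, Ccl20 entered the test only through its MMF libraries.
Nos2 promoter, chr11:78811363-78811612, GRCm39, plus strand: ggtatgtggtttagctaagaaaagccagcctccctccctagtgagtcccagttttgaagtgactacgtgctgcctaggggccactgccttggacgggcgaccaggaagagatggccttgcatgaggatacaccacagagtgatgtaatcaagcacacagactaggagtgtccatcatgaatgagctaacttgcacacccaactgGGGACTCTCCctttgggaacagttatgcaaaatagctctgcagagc
Ccl20 promoter, chr1:83094237-83094486, GRCm39, plus strand: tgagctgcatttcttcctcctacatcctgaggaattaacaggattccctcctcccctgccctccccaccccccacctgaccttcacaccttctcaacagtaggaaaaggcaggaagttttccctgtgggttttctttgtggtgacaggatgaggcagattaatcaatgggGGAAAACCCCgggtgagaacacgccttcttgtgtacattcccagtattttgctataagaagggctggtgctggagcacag
Cd69 promoter, chr6:129252400-129252649, GRCm39, minus strand: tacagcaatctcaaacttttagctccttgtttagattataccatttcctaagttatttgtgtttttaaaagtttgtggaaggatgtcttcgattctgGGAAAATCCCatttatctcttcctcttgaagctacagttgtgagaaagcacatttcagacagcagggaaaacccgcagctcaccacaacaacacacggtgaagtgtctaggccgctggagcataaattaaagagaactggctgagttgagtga
In Nos2 the match starts 46 bases before the gene start, in Ccl20 80 and in Cd69 153. None of these windows held a match to the other motifs. The call of Nos2 rests on MMF replicate 3, without which its adjusted p was 0.0525.

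Some of the factors that carry the interferon signal were also lower. Of 23 IRF, STAT, JAK and SOCS genes tested 10 were lower and 0 higher, with a median of -0.59. Cish and Socs3, feedback inhibitors of cytokine receptors, were lower by -1.99 ± 0.30 (SE, adjusted p = 0.00471) and by -1.28 ± 0.17 (SE, adjusted p = 0.00246). Socs1 counted 29.9, 40.0 and 32.5 with DMF and 71.8, 101 and 79.4 with MMF (-1.27 ± 0.22 SE, adjusted p = 0.00794). The kinase Tyk2 was lower by -0.90 ± 0.13 (SE, adjusted p = 0.0037) and Irf8, a factor of the myeloid lineage, by -0.78 ± 0.13 (SE, adjusted p = 0.00697). Irf1 was lower by -0.85 (adjusted p = 0.019), a call lost without DMF replicate 3 (0.0858), MMF replicate 2 (0.0725) or MMF replicate 3 (0.0929). The interferon receptor chains Ifnar1 and Ifnar2 and the factor Irf3, which is activated after translation, were not called, at -0.28 (95% interval -0.55 to -0.02), -0.07 (95% interval -0.28 to 0.14) and -0.11 (95% interval -0.34 to 0.12). The list held 5 calls without MMF replicate 3, 6 without DMF replicate 3 and 16 without DMF replicate 2.

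Among 17 immediate early factors and MAP kinase phosphatases tested 3 were lower and 1 higher (median -0.07). Fos counted 112, 110.2 and 95.6 with DMF and 298, 289.6 and 211 with MMF (-1.31 ± 0.17 SE, adjusted p = 0.00214) and the phosphatase Dusp6, a reporter of ERK activity, averaged 2129.6 with DMF and 3882 with MMF (-0.90 ± 0.15 SE, adjusted p = 0.00798). Fosl1, another partner of Jun, was higher, with 262, 286 and 312 with DMF and 168, 148 and 112 with MMF (1.02 ± 0.17 SE, adjusted p = 0.00614). Jun and Atf3 were not called, at -0.03 (95% interval -0.26 to 0.20) and -0.07 (95% interval -0.37 to 0.22). Ccnd1, cyclin D1, was the call in a list of 16 genes of G1 and DNA replication, at 3974 with DMF and 6443 with MMF (-0.69 ± 0.09 SE, adjusted p = 0.00214).

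In several lists the fumarates differed little at 4 h. None of 17 glycolysis genes was called by limma, edgeR or DESeq2, 0 had an unadjusted p below 0.05, and all 17 had an interval within 0.5 of zero. Ldha differed by 0.06 (95% interval -0.16 to 0.28), and Pkm by 0.06 (95% interval -0.23 to 0.35). None of 21 genes of sterol synthesis was called by any of these tools and 3 had an unadjusted p below 0.05, 17 of them had an interval within 0.5 and all 21 within 1. Of 18 genes of cell division 1 was called, Aurka, at 0.31 (adjusted p = 0.0447), a call kept only when DMF replicate 2 was the library left out, whereas Mki67 differed by 0.11 (95% interval -0.15 to 0.37). All 26 proteasome subunits had a positive difference, with a median of 0.19, but only the subunit Psmd11 was called (0.48 ± 0.08 SE, adjusted p = 0.00695). Of 21 lysosome and autophagy genes 2 were higher, the autophagosome proteins Gabarapl1, at 0.69 ± 0.10 (SE, adjusted p = 0.00406), and Map1lc3b, at 0.55 (adjusted p = 0.0112), which lost its call without DMF replicate 3 (0.0575). Of 12 genes of cholesterol efflux and lipid storage 1 was higher, Apoe, at 0.50 (adjusted p = 0.0127), a call lost without DMF replicate 3 (0.0688), MMF replicate 1 (0.0542) or MMF replicate 3 (0.055). Among 12 tested microglia and macrophage markers 1 was called, the factor Spi1, at -0.43 (adjusted p = 0.0399), which kept its call only without DMF replicate 2.

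To place the fumarates beside LPS and vehicle, the 18 libraries of the 6 groups at 4 h were brought to 1 scale. Against LPS alone DMF was called higher in 4.55% and lower in 6.51% of the 11371 genes tested, and MMF higher in 0.0787% and lower in 0.0437% of 11431, which is 9 and 5 genes. The 14 MMF calls were 63 when LPS replicate 2 was left out, 9 for LPS replicate 1, 3 for MMF replicate 2, 2 for MMF replicate 3 and 1 for LPS replicate 3 or MMF replicate 1. The 1257 DMF calls were 571 for LPS replicate 3, 588 for DMF replicate 3 and 799 for LPS replicate 1. Hmox1 averaged 3383 ± 222 with vehicle, 3825 ± 636 with LPS, 8151 ± 929 with LPS and MMF and 42237 ± 6469 with LPS and DMF (SD, n = 3). The difference from LPS alone was 3.46 (adjusted p = 4.20e-06) for DMF and 1.10 (adjusted p = 0.0128) for MMF, both called. Srxn1 and Gclm were likewise called for MMF against LPS, at 1.11 (adjusted p = 0.00958) and 0.81 (adjusted p = 0.0205), beside 3.46 (adjusted p = 1.21e-07) and 2.91 (adjusted p = 4.20e-06) for DMF. The MMF calls of all 3 genes were lost without LPS replicate 3 (0.0884 for Hmox1, 0.0821 for Srxn1 and 0.185 for Gclm) or MMF replicate 1 (0.0806, 0.0806 and 0.130), and those of Hmox1 and Gclm also without MMF replicate 2 (0.0766 and 0.0809) or MMF replicate 3 (0.111 for both). For Slc7a11 MMF gave 1.21 (adjusted p = 0.00428) and DMF 2.75 (adjusted p = 4.20e-06). Nos2 averaged 115 ± 122 with vehicle, 2237 ± 1792 with LPS, 2139 ± 1024 with LPS and MMF and 222 ± 274 with LPS and DMF. Against LPS alone its difference was -3.81 (adjusted p = 0.0159) for DMF, a call lost without DMF replicate 1 (0.0595) or DMF replicate 3 (0.0746), and 0.11 (adjusted p = 0.983) for MMF. For Cxcl10 the levels were 98.8 ± 59.3 with vehicle, 764 ± 312 with LPS, 653 ± 235 with LPS and MMF and 157 ± 29.7 with LPS and DMF. These comparisons share the LPS libraries with each other and the drug libraries with DMF against MMF, so they are not independent of it.

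**Figure D4:**
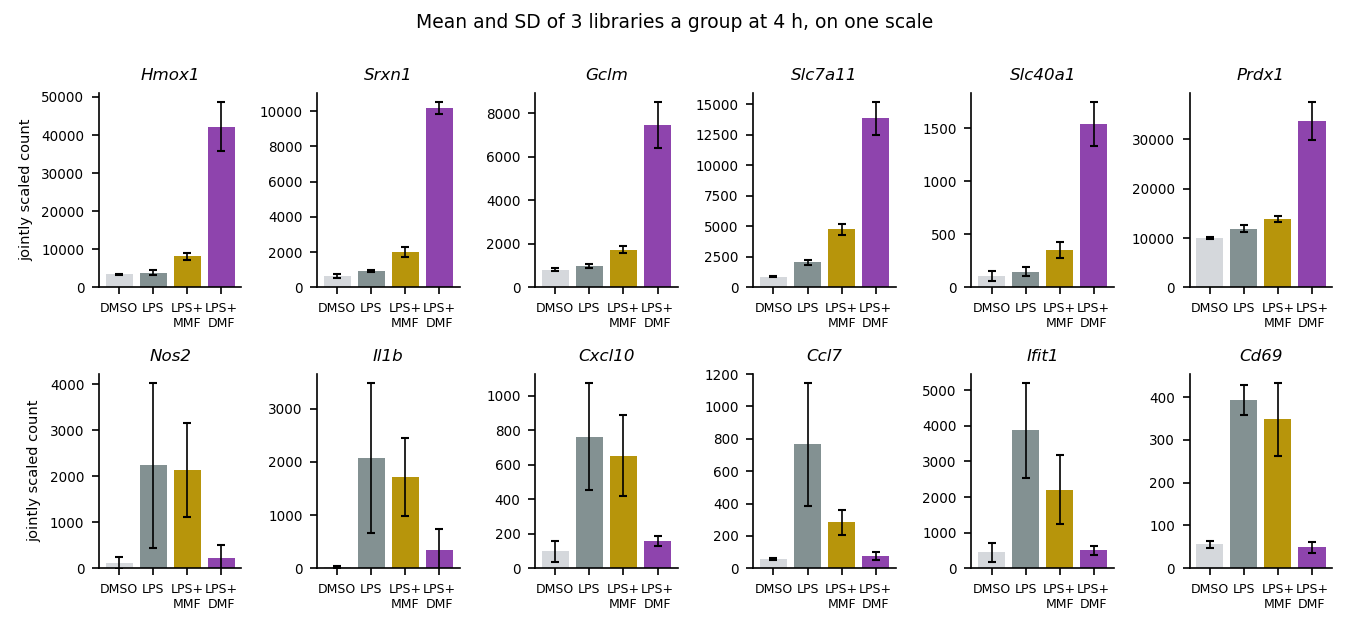
Bars are the mean and error bars the SD of 3 libraries for vehicle (DMSO), LPS, LPS with MMF and LPS with DMF at 4 h, as counts on 1 scale, for 12 genes, and error bars that would pass below zero are cut there. For the redox genes of the first 6 panels the mean of LPS with MMF lies between those of LPS and of LPS with DMF. MMF against LPS was not called for Slc40a1 and Prdx1. For the 6 LPS-raised genes LPS with DMF is the lowest of the LPS groups.

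LPS against vehicle shares no library with DMF against MMF, so its calls can be set against it. The vehicle libraries are numbered 4 to 6 and the LPS libraries 1 to 3. Whether the vehicle cells had lowered serum is not given in the sources used here. Differences of serum or of a separate set of experiments therefore cannot be told apart from those of LPS. LPS raised 7.7% and lowered 6.38% of the 11424 genes tested against vehicle. Of 11249 genes tested in both, it raised 875, and of these 230 (26.3%) were lower and 64 (7.31%) higher with DMF than with MMF, beside the 4.97% and 3.37% of all genes. Of the 268 genes that LPS raised beyond a log2 difference of 1, 137 (51.1%) were lower and 9 (3.36%) higher, and 233 of the 268 had a negative difference, with a median of -0.92. Of the 87 raised beyond 2, 51 (58.6%) were lower and the median was -1.29. Some genes that LPS raised, such as Ccl20 and Tgtp2, entered the LPS test only through LPS libraries. They entered DMF against MMF only through MMF libraries. For such genes the filter favoured a rise with LPS and a lower level with DMF, and the shares were not computed without them. Genes that LPS lowered did not mirror this. Of 725 such genes 78 (10.8%) were lower again with DMF and 13 (1.79%) higher. Seen from the other side, 40.7% of the 565 genes lower with DMF and 17.1% of the 374 higher with DMF were raised by LPS. The LPS calls themselves numbered 1609, with 663 when vehicle replicate 6, 739 when LPS replicate 3 and 1064 when vehicle replicate 5 was left out.

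The same contrast at 24 h used other libraries, and it called 2508 of 11665 genes (21.5%), 1173 higher and 1335 lower with DMF. A fit blocked on the replicate number called 4639. Leaving out DMF replicate 3 of 24 h gave 955 calls, MMF replicate 3 gave 1281, MMF replicate 1 gave 1426 and DMF replicate 2 gave 1461. Of the genes called at 4 h 301 were called at 24 h, which is 31.7% of the 4 h calls and 12% of the 24 h calls. The direction was the same in 196 of them and opposite in 105. Of the 376 genes higher at 4 h and tested at 24 h, 29.5% were higher at 24 h, beside 10.1% of all genes, and 7.18% were lower. Of the 563 genes lower at 4 h, 15.1% were lower at 24 h, beside 11.4% of all genes, and 13.9% were higher, beside 10.1%. The median of the genes higher at 4 h went from 0.53 to 0.15 and that of the genes lower at 4 h from -0.74 to -0.01. The genes were chosen by their 4 h values, so these medians are given as a description.

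A fit over the 12 libraries of both times tested whether the difference between the fumarates itself changed. It did in 1614 of 11935 genes (13.5%), upward in 789 (6.61%) and downward in 825 (6.91%), and in 2605 when blocked on the replicate number. Among the 24 h libraries, leaving out MMF replicate 3 gave 940 such genes, DMF replicate 3 gave 942, DMF replicate 2 gave 960 and MMF replicate 1 gave 989. Hmox1 averaged 7507 ± 1638 with DMF and 7634 ± 892 with MMF at 24 h, a difference of -0.04 (adjusted p = 0.865), and the change from 4 h was -2.42 ± 0.21 (SE, adjusted p = 2.92e-05). Gclm and Slc40a1 also closed, by -2.01 ± 0.17 (SE, adjusted p = 2.92e-05) and -1.91 ± 0.21 (SE, adjusted p = 8.31e-05). Hmox1, Gclm and Slc40a1 were named for the size of their 4 h differences, a choice that favours a change toward zero. Osgin1 was still higher at 24 h, by 0.94 (adjusted p = 0.00233). So was Srxn1, by 0.51 (adjusted p = 0.0319), but not without DMF replicate 2 (0.0910), DMF replicate 3 (0.134), MMF replicate 1 (0.0947) or MMF replicate 3 (0.0980) of that time.

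Several inflammatory genes crossed over. Ccl7, lower with DMF at 4 h, averaged 929 ± 126 with DMF and 252 ± 91.5 with MMF at 24 h (1.94, adjusted p = 0.00112), a change of 3.79 ± 0.39 (SE, adjusted p = 5.88e-05). Il1b averaged 5335 ± 1415 with DMF and 2949 ± 932 with MMF at 24 h (0.87, adjusted p = 0.0307), a change of 3.80 ± 0.81 (SE, adjusted p = 0.00785), and its call at 24 h was lost without DMF replicate 2 (0.0816), DMF replicate 3 (0.130), MMF replicate 1 (0.0890) or MMF replicate 3 (0.0882). Rsad2, the antiviral enzyme viperin, went from -1.57 to 1.19 (adjusted p = 0.00492), and Cd83, a surface marker of mature dendritic cells, from -2.35 to 1.43 (adjusted p = 0.00863). In DMF against LPS at 4 h no DMF library reached 10 normalized counts of Cd83, which entered that test through the LPS libraries. Its 4 h difference from MMF thus rests on a level with DMF close to that limit or below it. At 4 h the calls of Il1b, Rsad2 and Cd83 were lost without DMF replicate 3 (0.0735, 0.0544 and 0.092), that of Rsad2 also without MMF replicate 3 (0.0555), those of Il1b and Cd83 without DMF replicate 1 (0.0709 and 0.0786), and that of Il1b without MMF replicate 2 (0.07) or MMF replicate 3 (0.0819). Nos2 reached 5602 ± 2125 with DMF and 6713 ± 2799.8 with MMF at 24 h. In the fit without a replicate block the fumarates were no longer told apart for this gene (-0.25, adjusted p = 0.569). At 24 h 10.1% of all genes tested were higher with DMF and 11.4% lower. Over the lists, 10 of 15 cytokine genes tested at 24 h were higher with DMF and 0 lower. Of 27 interferon-stimulated genes 7 were higher and 0 lower. Of 14 chemokine genes 6 were higher and 2 lower, and of 12 GTPases 4 were higher and 0 lower. The change between times was called upward in 9 cytokine genes, 8 chemokine genes, 20 interferon-stimulated genes and 12 of 13 GTPases. Among all genes tested it was called upward in 6.61%. Of the 24 h counts, that of interferon-stimulated genes was 3 without DMF replicate 3 or MMF replicate 3 and 14 without DMF replicate 1. That of chemokine genes, 8 in all, fell to 3 when DMF replicate 3 was left out, to 4 for MMF replicate 3 and to 5 for MMF replicate 1. That of GTPases was 2 without DMF replicate 2, DMF replicate 3 or MMF replicate 3. The cytokine count at 24 h and the counts of the change between times in these lists moved by no more than 1.5 times.

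Sterol synthesis and cell division moved the other way. All 21 sterol genes, none of which was called at 4 h, were lower with DMF at 24 h, with a median of -1.34, and the change was called in 19. Hsd17b7, a reductase of the late pathway, averaged 282 ± 24.9 with DMF and 1104 ± 94.3 with MMF at 24 h, a change of -2.13 ± 0.16 (SE, adjusted p = 8.97e-06), and Acat2, a thiolase at the start of it, changed by -2.14 ± 0.20 (SE, adjusted p = 2.92e-05). Of 18 cell division genes 17 were lower at 24 h, with a median of -0.68. That count fell to 6 when DMF replicate 3 was left out, to 7 for MMF replicate 3 and to 8 for MMF replicate 1, while that of sterol genes was 20 or 21 whichever library was left out. Of 15 genes of the Atf4 response 10 were called higher at 24 h, beside 5 at 4 h. Their median was 0.47, beside 0.38 at 4 h, and the change was called in 2. Of all genes tested 10.1% were called higher and 11.4% lower at 24 h, beside 3.37% and 4.97% at 4 h.

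**Figure D5:**
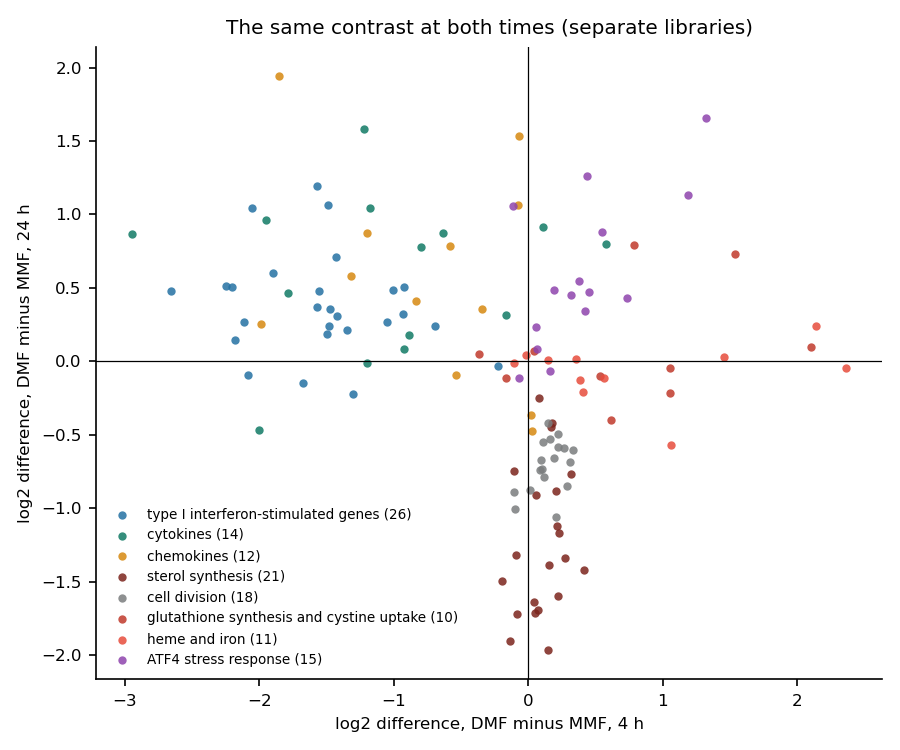
Log2 difference, DMF minus MMF, at 4 h (horizontal) and at 24 h (vertical), for the members of 8 gene lists tested at both times. The libraries of the 2 times are separate. Interferon-stimulated genes lie to the left at 4 h and around or above zero at 24 h, and the 21 sterol genes lie near zero at 4 h and below it at 24 h.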

How the data were processed

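Total RNA was extracted from BV-2 cells, and poly(A)+ libraries were sequenced. Per the labels, the submitters' processing notes name FastQC 0.12.1, cutadapt 4.4, Trimmomatic 0.39, HISAT2 2.2.1, HTSeq 2.0.3, R 4.3.1 and DESeq2 1.40.2, with GRCm39. Reads were counted on an Ensembl gene annotation. The strand setting of the counting is not given in the sources used here, so reads of overlapping or antisense genes cannot be told apart. The values deposited by the authors are normalized counts per gene, a signal made by dividing read counts by the size factor of each library. The tables also hold the authors' own fold changes and p-values, which were not used. Samples were grouped by their titles, and each comparison used the table of its own pair of groups.

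Whole reads were recovered from the deposited values in all 24 library columns used. Of 415824 values 100% lay within 0.01 of a whole read. Replicate libraries differed by more than sampling noise, so none was counted as a repeat. Genes entered a test when their normalized count reached 10 in 3 or more of its 6 libraries. limma 3.58.1 in R 4.3.3 was run with an intensity trend on log2(normalized count + 1), and p-values were adjusted over all genes tested by the Benjamini-Hochberg method. A gene was called at an adjusted p below 0.05. Intervals are 95% intervals from limma, and these p-values measure the spread between 3 independent experiments. The count test of edgeR 4.0.16 on the recovered reads called 957 genes at 4 h, and DESeq2 1.42.0 called 1229. The change between times was the interaction of drug and time over 12 libraries, and levels across groups came from the 18 libraries at 4 h, both on recovered reads under joint size factors. The code was tested on simulated data.

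At 24 h the replicate numbers of the labels paired the DMF and MMF libraries. The deviations of same-numbered libraries from their group means correlated at 0.415, 0.575 and 0.202 across genes, so the count with the replicate number as a block is given beside that comparison. All gene values and list counts at 24 h and for the change between times come from the fits without the block. At 4 h the pairing was partial, and the blocked count is given in a later section.

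Named genes were the 12 largest rises and 12 largest falls among called genes whose groups did not overlap and whose mean reached 50 in the higher group, members of 31 gene lists, the 4 genes with the largest change between times in each direction, and the 3 with the largest opposite calls at both times. The compared libraries, the lists and the rule were chosen with earlier results of these data known. Gene positions are those deposited by the authors, on GRCm39. In GENCODE vM39 19225 of 19253 genes were found by identifier, and all 19225 lay at an overlapping position. Promoter windows were placed before its canonical transcripts, and their sequences were read from the GRCm39 genome. Other settings tried were pseudocounts of 0.1 and 5, no filter or a stricter one, TMM factors, no intensity trend, all 18 libraries, a replicate block, removal of length and GC trends, and each library left out. A few genes of the lists are not reported here.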

Additional observations from a re-analysis of the deposited data

Results flagged for a closer look

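The difference between DMF and MMF was itself different at 24 h and at 4 h in 1614 genes by the interaction term of limma, and the genes named in the report were among them as follows. Each value is the log2 difference, DMF minus MMF, at 24 h minus that at 4 h, and a negative value means that DMF stood lower relative to MMF at 24 h than at 4 h.

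The largest rises and falls were chosen by their 4 h values, which the change subtracts, so a change toward zero was favoured by the choice. Their values are given as a description. Among the largest rises of 4 h the change was -2.42 for Hmox1, -2.34 for Vegfd, -2.01 for Gclm, -1.91 for Slc40a1, -1.85 for Srxn1 and -1.61 for Aox1. It was -1.48 for the carrier Slc22a4, -1.22 for Procr, -1.01 for Osgin1 and -0.86 for Rnf183. The term of Osgin1 was not called when DMF replicate 3 of 4 h was left out (adjusted p = 0.0906), nor without 7 of the other 11 libraries, with an adjusted p of 0.0572 to 0.0845. That of Rnf183 was not called without 8 of the 12 libraries, with an adjusted p of 0.0575 to 0.103, the highest without DMF replicate 2 of 24 h.

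Among the largest falls it was 3.80 for Il1b, 3.76 for Gbp4, 3.69 for Ccl20, 3.66 for Nos2, 3.56 for Asb2, 3.13 for Mx1 and 3.02 for Ifit1bl1. Ddx60 changed by 2.99, Cd69 by 2.70, Gbp5 by 2.66 and Lcn2 by 2.38. Asb2, Gbp4, Ccl20 and Gbp5 averaged 4.96, 6.03, 5.26 and 5.98 normalized counts with DMF at 4 h.

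Among the genes named for the size of the change, Gm5431 had 4.43, but it averaged 2.04 normalized counts with DMF at 4 h and entered the test at that time through its MMF libraries. Ccl7 had 3.79, and Acat2 (-2.14) and Hsd17b7 (-2.13), neither of which was called at 4 h, stood with Hmox1 and Vegfd among the lowest. Called in opposite directions at both times were Cd83, with a change of 3.78, Rsad2, with 2.76, and Ccl7. The level of Cd83 with DMF at 4 h was close to 10 normalized counts or below, as described above.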

How the results depend on the processing

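The main count of 949 genes moved with how the spread was estimated. Without an intensity trend there were 568 calls (220 higher with DMF and 348 lower). With the spread taken over all 18 libraries at 4 h there were 2116 (972 and 1144). Beyond a log2 difference of 1 there were 266 (73 and 193). After length and GC trends were removed 735 genes were higher. Pseudocounts, filters, TMM factors, edgeR and DESeq2 gave 844 to 1229. None of the 155 listed or named genes called at 4 h changed sign under any of these settings. The groups lay wholly apart in 945 of all called genes, so a change of sign was hardly possible and its absence is no measure of stability.

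At 4 h the replicate numbers paired the libraries in part, most plainly for replicate 2. The main fit had no block, so its spread includes what same-numbered libraries share. Same-numbered libraries correlated at 0.278, 0.621 and 0.0418. DMF replicate 2 correlated at -0.487 with MMF replicate 1 and at -0.188 with MMF replicate 3. DMF replicate 3, however, correlated best with MMF replicate 1 (0.28). A fit with the replicate number as a block called 1740 genes (717 higher and 1023 lower), and with the block and the length and GC trends removed 2948 (1692 and 1256). With the block all 155 listed or named genes kept their call and 59 others gained one. It called lower 11 cytokine genes (7 without it), 9 chemokine genes (6) and 13 genes of the NF-kB list (8). The lists of NADPH supply and detoxification stayed at 4 and 5 higher. With the block the change between times was called in 2605 genes and the 24 h difference in 4639. Beyond a log2 difference of 1 these counts were 416 and 237 without the block.

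With 1 library left out in turn the counts ranged from 321 to 1226 at 4 h (120 to 411 higher and 201 to 815 lower), from 955 to 2956 at 24 h and from 940 to 2003 for the change between times. They ranged from 571 to 1275 for DMF against LPS, from 1 to 63 for MMF against LPS and from 663 to 1636 for LPS against vehicle. The cause of these shifts was not tested, and a group with 2 libraries was assumed to vary as the other. With 3 libraries a group and a 95% interval that reached a median of 0.28 to either side, smaller differences were often not detectable, and genes with few reads had wider intervals.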

Other observations

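Replicate 2 was the highest library of both groups in 20 of the 20 called interferon-stimulated genes, in 9 of the 11 called interferon-inducible GTPases and in 7 of the 13 cytokine and chemokine genes called lower. It was so in 2 of the 12 largest rises. In the same 20 interferon-stimulated genes the groups lay wholly apart in 19, beside 945 of all 949 called genes. Of the 949 called genes 805 were members of none of the lists.

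Oasl2 and Cish, both lower with DMF (-2.18 and -1.99), were the called list members other than Gclm that held the antioxidant response element within 250 bases of the start and had the largest differences. Neither window held the interferon element or the kappaB consensus.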
